A study of Homo sapiens with 6 samples.

Results

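The Wnt pathway was described in MDA-MB-231 cells through 10 genes: DKK1, which was chosen because its mRNA was lower with TAZ-siRNA, and 9 genes chosen for their role, namely the ligands WNT5A, WNT5B and WNT7B, the secreted protein gene DKK3, the receptor FZD6, the co-receptors LRP5 and LRP6, the scaffold and feedback gene AXIN2 and the DNA-binding factor TCF7L2. These are 10 of 46427 genes in the deposited table, and all 10 were among the 16966 that passed the filter on low counts. Since the fall of DKK1 was the reason for its choice, its values are a description without a test, whereas the other 9 genes were tested. The 9 genes, and the further lists below, were chosen with earlier results of these data known.

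MDA-MB-231 is a triple-negative human breast cancer cell line of high metastatic capacity. Its cells, labelled as wild type, were grown in low-glucose DMEM with fetal bovine serum and transfected with control-siRNA (3 cell preparations) or with TAZ-siRNA (3 cell preparations), which is directed against WWTR1, the gene that encodes the transcriptional co-activator TAZ. The design asked which mRNAs changed when TAZ was knocked down, and stranded mRNA libraries were sequenced. A single line, a single siRNA reagent and cell populations rather than single cells were studied, so fewer cells with an mRNA and less of it per cell cannot be told apart.

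Wnt proteins are secreted, lipid-modified signals that bind Frizzled receptors together with the co-receptors LRP5 and LRP6. In the canonical branch this stops the destruction complex of AXIN, APC and GSK3 kinases from marking β-catenin for breakdown, and β-catenin then works with TCF/LEF factors such as TCF7L2 on target genes, of which AXIN2 is a common feedback target. WNT5A and its relatives also act through branches that do not need β-catenin, among them planar polarity, and DKK1 is a secreted inhibitor that binds LRP5 and LRP6 and keeps them from joining the receptor complex.

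WWTR1 mRNA, the target of the siRNA, was 191 ± 1.46 CPM (counts relative to library size, with TMM factors; SD, n = 3) with control-siRNA and 16.5 ± 1.21 CPM with TAZ-siRNA, or 8.64% of control. Total counts lay between 48307548 and 71749634 per library. A floor of 3 counts was thus worth 0.0411 to 0.0618 CPM, and it entered no fit. Principal components of all genes tested set the groups apart along the first (40.1% of the variance), while the second (18.2%) placed TAZ-siRNA replicate 3 away from the rest, at -33.8 against -3.97 to 19.3. Where omitting this library changed a call of the 10 genes, the value without it is given. The markers VIM, CD44, KRT18 and AXL of these cells summed to 5040 to 5310 CPM with control-siRNA and 4690 to 4980 CPM with TAZ-siRNA, and AXL alone of the 4 passed the test (log2 fold change -0.35, adjusted p = 0.0023). The 5 breast markers that the line is known to lack or to hold at low levels summed to 46.4 to 49.7 CPM and 47.4 to 63.4 CPM, nearly all of it ERBB2 (0.24, adjusted p = 0.1). The 5 markers of leukocytes, endothelium and fibroblasts summed to 12.7 to 13.9 CPM and 15.3 to 18.8 CPM, with PTPRC and DCN at 0 in every library and COL1A1 higher with TAZ-siRNA (0.42, adjusted p = 0.007). The part of these markers in the results was not tested.

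DKK1 (NCBI gene 22943) has a single transcript in the deposited tables, on chromosome 10 of GRCh38 from 52314281 to 52317657. The 250 bases before its start are shown because the gene was chosen for its fall and because TEAD factors, the DNA-binding partners of TAZ, and TCF/LEF factors have known short recognition motifs. The same stretch of LRP5, the gene with the largest rise of the 9 tested, is shown for comparison. Capitals mark the letters GGAATG (TEAD) and CTTTGA (TCF/LEF), each searched on both strands, in RefSeq windows of GRCh38.p14 on the plus strand, chr10:52314031-52314280 for DKK1 and chr11:68312341-68312590 for LRP5.
DKK1: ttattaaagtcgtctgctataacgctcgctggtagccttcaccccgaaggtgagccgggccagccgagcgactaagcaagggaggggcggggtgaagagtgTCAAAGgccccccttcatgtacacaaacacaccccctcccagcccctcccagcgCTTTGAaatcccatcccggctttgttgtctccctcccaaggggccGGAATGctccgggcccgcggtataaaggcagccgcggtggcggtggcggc
LRP5: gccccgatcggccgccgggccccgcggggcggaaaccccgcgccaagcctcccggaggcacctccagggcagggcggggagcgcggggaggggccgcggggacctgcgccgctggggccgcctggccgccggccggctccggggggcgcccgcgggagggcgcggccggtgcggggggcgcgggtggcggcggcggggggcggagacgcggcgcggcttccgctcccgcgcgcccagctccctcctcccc

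In the DKK1 window, which runs from 250 bases before the start to 50 after it, GGAATG began 50 bases before the start, and CTTTGA began 95 bases before it. The reverse complement of the latter, TCAAAG, began 149 bases before the start. RefSeq windows were at hand for 5 of the 10 genes (DKK1, LRP5, WNT5A, WNT5B and TCF7L2; 9 windows in all), and DKK1 was the only one of the 5 with a match to either motif. Among all 35116 windows of the same length, 14.0% held GGAATG and 12.9% held CTTTGA on either strand. The AP-1 motif TGANTCA was in none of the 9 windows and in 7.71% of all. A match of these letters is a description and not a site of binding.

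DKK1 counts were 8443, 6905 and 5417 in control-siRNA replicates 1, 2 and 3 and 2387, 1607 and 2051 in the TAZ-siRNA replicates. Scaled to library size, these were 127, 111 and 112 CPM with control-siRNA and 32.7, 32.6 and 36.7 CPM with TAZ-siRNA. Every TAZ-siRNA library was thus far below every control-siRNA library, and the spread within each group was small beside the gap between them. The means were 116 ± 8.88 CPM and 34.0 ± 2.35 CPM (SD, n = 3). DKK1 mRNA with TAZ-siRNA was thus at 29.2% of its control level, a log2 fold change of -1.78 (SE 0.0698). Leaving out any 1 library kept the log2 fold change between -1.83 and -1.71. These values chose the gene and carry no test.

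**Figure D1:**
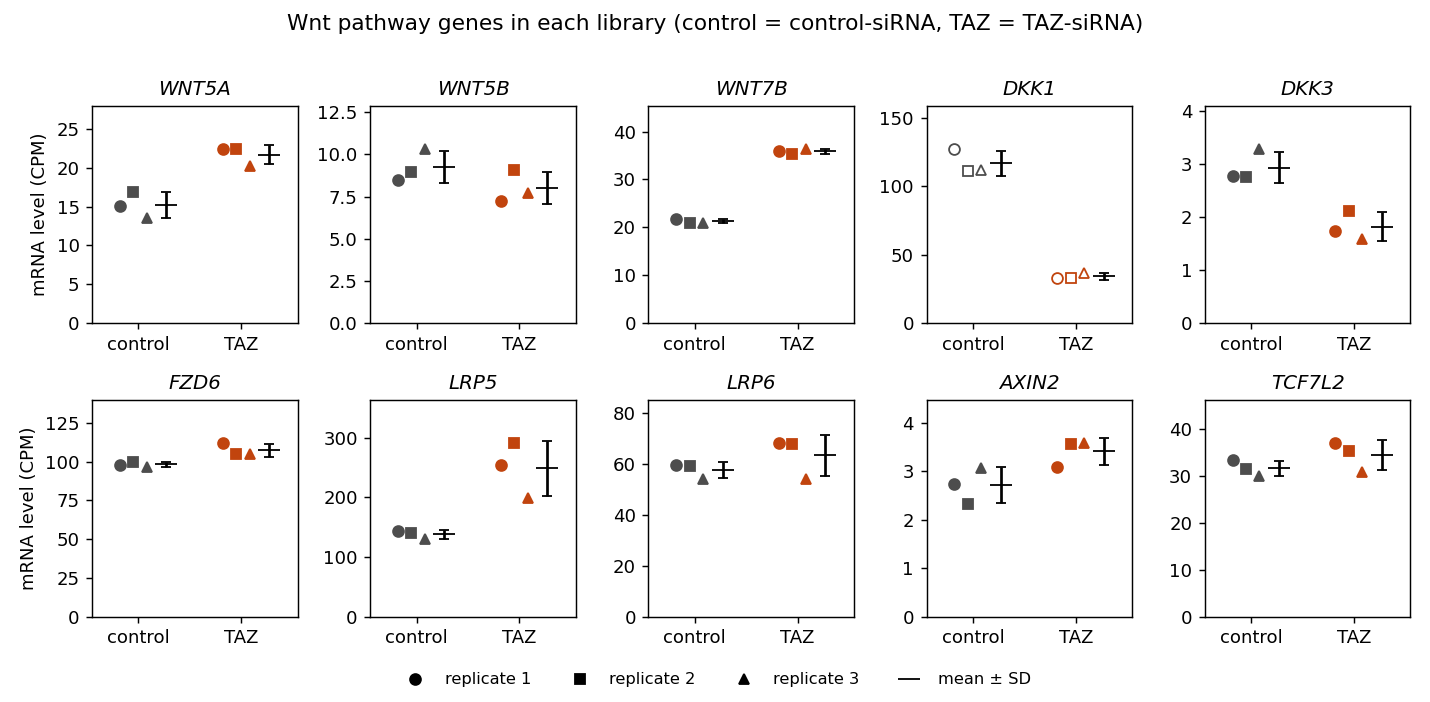
mRNA level in CPM (y axis from 0, one panel per gene) of the 10 Wnt pathway genes in each control-siRNA (grey) and TAZ-siRNA (orange) library, with mean and SD (n = 3) beside the points and DKK1 drawn hollow because it has no test. DKK1 dropped from 111 to 127 CPM to between 32.6 and 36.7 CPM, whereas LRP5, WNT5A and WNT7B were higher in every TAZ-siRNA library. Replicate 3 (triangle) was the lowest for LRP5, LRP6 and TCF7L2 in the control-siRNA group as well as in the TAZ-siRNA group.

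Among the 9 genes chosen by role, 4 passed an adjusted p of 0.05 in edgeR's quasi-likelihood test, against 22.1% of all genes tested (11.9% higher and 10.2% lower with TAZ-siRNA). WNT5A, WNT7B and LRP5 rose, DKK3 fell, and FZD6, AXIN2, LRP6, TCF7L2 and WNT5B did not pass. In 6 of the 9, 5 higher and 1 lower, no TAZ-siRNA library fell within the control range, which was so in 39.6% of all genes tested (20.0% higher and 19.6% lower). The median log2 fold change of the 9 was 0.14, beside -0.0054 for all genes tested, and 7 of the 9 were positive. No test of the 9 genes as a group was made. As they were chosen with earlier results of these data known, their share of calls is a description. Leaving out TAZ-siRNA replicate 3 brought the number past the threshold to 7, 6 higher and 1 lower, with FZD6, LRP6 and TCF7L2 added. In that fit, however, 5928 of all genes passed against 3749 with all 6 libraries.

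**Figure D2:**
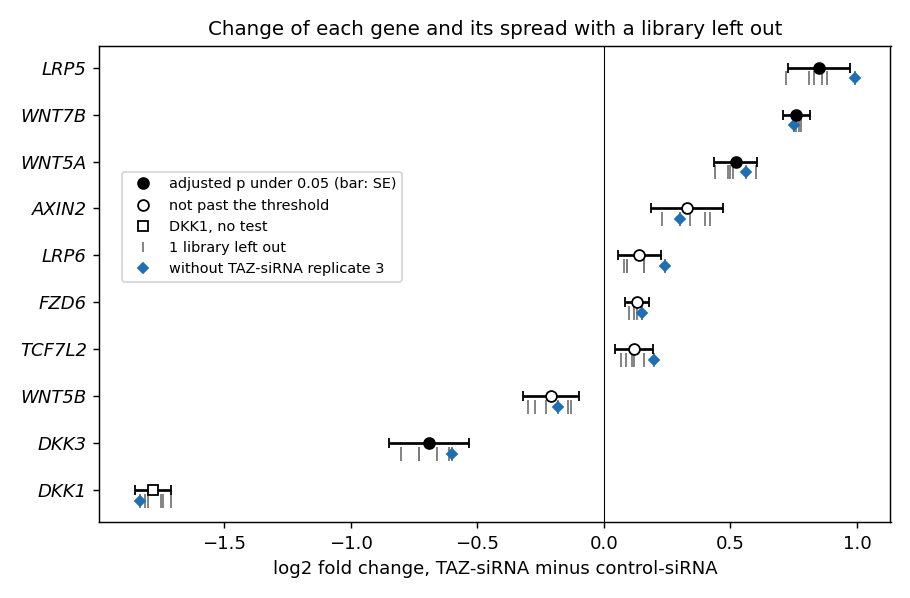
log2 fold change, TAZ-siRNA minus control-siRNA (x axis), of the 10 genes with its SE (bar), filled where the adjusted p from edgeR was under 0.05, with ticks for the value when 1 library was left out and a diamond for the value without TAZ-siRNA replicate 3. No gene changed direction in any of these fits, and LRP5 ran from 0.72 to 0.99.

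WNT7B (NCBI gene 7477; chromosome 22, 45920362 to 45977162), a ligand that can act through β-catenin, was the most evenly measured of the ligands. Its level was 21.7, 21.0 and 21.0 CPM in the control-siRNA libraries and 35.9, 35.4 and 36.3 CPM in the TAZ-siRNA libraries. The groups stood well apart, with an SD of 0.422 CPM around the control mean of 21.2 and of 0.445 CPM around the TAZ-siRNA mean of 35.9. WNT7B therefore rose 1.69-fold (log2 fold change 0.76, SE 0.0532, adjusted p = 4.4e-05), and with any library omitted the log2 fold change was 0.75 to 0.78, past the threshold in 6 of 6 fits.

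WNT5A (NCBI gene 7474; chromosome 3, 55465715 to 55505261), a ligand best known for signalling without β-catenin and for its part in cell movement, rose as well. It was at 15.1, 16.9 and 13.6 CPM with control-siRNA and at 22.4, 22.4 and 20.3 CPM with TAZ-siRNA. The lowest TAZ-siRNA library was above the highest control library. The means, 15.2 ± 1.65 and 21.7 ± 1.23 CPM (SD, n = 3), differed 1.43-fold (log2 fold change 0.52, SE 0.086, adjusted p = 0.0024), and the call held in 6 of 6 fits with a library left out.

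WNT5B (NCBI gene 81029; chromosome 12, 1529856 to 1647213), the closest relative of WNT5A, did not pass the test. Its level was 8.49, 8.97 and 10.3 CPM with control-siRNA and 7.24, 9.06 and 7.72 CPM with TAZ-siRNA. The groups overlapped, since TAZ-siRNA replicate 2 was above the lower pair of control libraries. The log2 fold change was -0.21 (SE 0.11, adjusted p = 0.2) and was past the threshold in 0 of 6 fits with a library left out. FBXL14, on the other strand, overlaps WNT5B and had up to 737 counts, with a log2 fold change of 0.048 (adjusted p = 0.72). Whether strand was used in counting is not given in the sources used here, so reads from the overlap of genes on opposite strands cannot be told apart.

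DKK3 (NCBI gene 27122; chromosome 11, 11962979 to 12009827) belongs by sequence to the Dickkopf family but, unlike DKK1, is not known to block LRP5 and LRP6 directly. Its counts were low, 184, 171 and 159 with control-siRNA and 127, 104 and 89 with TAZ-siRNA, which gave 2.76, 2.75 and 3.27 CPM and 1.74, 2.11 and 1.59 CPM. All TAZ-siRNA libraries were below all control libraries. The mean fell from 2.93 ± 0.3 to 1.81 ± 0.265 CPM (SD, n = 3), and the log2 fold change was -0.69 (SE 0.159, adjusted p = 0.012). The call was lost on omitting control-siRNA replicate 3 (-0.61, adjusted p = 0.056) or TAZ-siRNA replicate 1 (-0.66, adjusted p = 0.053). In the deposited coordinates USP47, on the other strand, does not overlap DKK3. The longer DKK3 of the GENCODE annotation overlaps it, where the ends and not the starts of both genes meet. USP47 had up to 8229 counts and a log2 fold change of 0.014 (adjusted p = 0.87).

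LRP5 (NCBI gene 4041; chromosome 11, 68298866 to 68449275), one of the co-receptors that DKK1 binds, showed the largest rise of the 9 genes. Its counts were 9597, 8697 and 6324 with control-siRNA and 18619, 14358 and 11135 with TAZ-siRNA, or 144, 140 and 130 CPM against 255, 291 and 199 CPM. Every TAZ-siRNA library was above the controls, but they were spread far more widely than the controls, with replicate 2 highest and replicate 3 lowest. The mean rose 1.8-fold, from 138 ± 7.03 to 249 ± 46.3 CPM (SD, n = 3), with a log2 fold change of 0.85 (SE 0.124, adjusted p = 0.0028). It was 0.72 without TAZ-siRNA replicate 2 and 0.99 without TAZ-siRNA replicate 3, and the call held in 6 of 6 fits.

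LRP6 (NCBI gene 4040; chromosome 12, 12116025 to 12267044), the other co-receptor, was at 59.7, 59.4 and 54.0 CPM with control-siRNA and at 68.3, 67.8 and 54.2 CPM with TAZ-siRNA. TAZ-siRNA replicates 1 and 2 were above every control, whereas replicate 3 was among them. The log2 fold change was 0.14 (SE 0.0857, adjusted p = 0.29), and without TAZ-siRNA replicate 3 it was 0.24 (adjusted p = 0.0024). After a correction for GC content and transcript length, with all libraries, it was smaller but still positive, at 0.022 (adjusted p = 0.77).

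FZD6 (NCBI gene 8323; chromosome 8, 103298494 to 103332866), a Frizzled receptor linked to planar polarity, was at 98.1, 100 and 96.5 CPM with control-siRNA and at 112, 105 and 105 CPM with TAZ-siRNA. The groups did not overlap, yet the gap was small. The log2 fold change of 0.13 (SE 0.0474) did not pass the test with all libraries (adjusted p = 0.073) and did without TAZ-siRNA replicate 3 (0.15, adjusted p = 0.018). It also passed at a like size after correction for GC content and transcript length (0.12, adjusted p = 0.026).

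AXIN2 (NCBI gene 8313; chromosome 17, 65528563 to 65561648), the scaffold of the destruction complex whose transcription commonly follows β-catenin activity, was lowly expressed. It had 182, 145 and 149 counts with control-siRNA and 225, 175 and 200 with TAZ-siRNA, or 2.73, 2.33 and 3.07 CPM against 3.09, 3.55 and 3.58 CPM. The lowest TAZ-siRNA library was just above the highest control library. The log2 fold change of 0.33 (SE 0.142) did not pass the test (adjusted p = 0.12), nor did it with any library left out (0.23 to 0.42, adjusted p 0.12 to 0.36).

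TCF7L2 (NCBI gene 6934; chromosome 10, 112950247 to 113167678), which binds DNA together with β-catenin, was at 33.4, 31.6 and 30.1 CPM with control-siRNA and at 37.1, 35.5 and 30.9 CPM with TAZ-siRNA. As for LRP6, TAZ-siRNA replicate 3 alone lay within the control range. The log2 fold change was 0.12 (SE 0.0747, adjusted p = 0.27) and 0.2 without that library (adjusted p = 0.017). Corrected for GC content and transcript length it was 0.049 (adjusted p = 0.59).

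Levels of different genes can be set side by side only per length, for which the deposited TPM, which are corrected for transcript length, were used. With control-siRNA, DKK1 was the most abundant of the 10 mRNAs at 140 ± 12.7 TPM (SD, n = 3), ahead of LRP5 at 58.0 ± 4.23 and FZD6 at 57.8 ± 2.21 TPM, which overlapped. TCF7L2 followed at 17.3 ± 1.28, then LRP6 at 12.7 ± 1.06 and WNT7B at 11.7 ± 0.43, which overlapped, and then WNT5B at 8.04 ± 0.0912 and WNT5A at 5.64 ± 0.741 TPM. DKK3 (2.29 ± 0.189 TPM) and AXIN2 (1.43 ± 0.173 TPM) were the lowest, without overlap. The order was changed at several places with TAZ-siRNA.

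With TAZ-siRNA, LRP5 led at 109 ± 24.0 TPM, followed by FZD6 at 66.1 ± 4.87, and DKK1 came after both at 42.5 ± 1.01 TPM. WNT7B (20.5 ± 0.792 TPM) now stood beside TCF7L2 (19.6 ± 2.66) and above LRP6 (14.5 ± 2.09), although WNT7B and TCF7L2 overlapped. WNT5A (8.4 ± 0.813) and WNT5B (7.4 ± 0.343) overlapped, as did AXIN2 (1.84 ± 0.138) and DKK3 (1.48 ± 0.264 TPM). DKK1, the inhibitor, thus had more mRNA per length than either of its co-receptors in every control library. In every TAZ-siRNA library it had less than LRP5 but still more than LRP6.

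**Figure D3:**
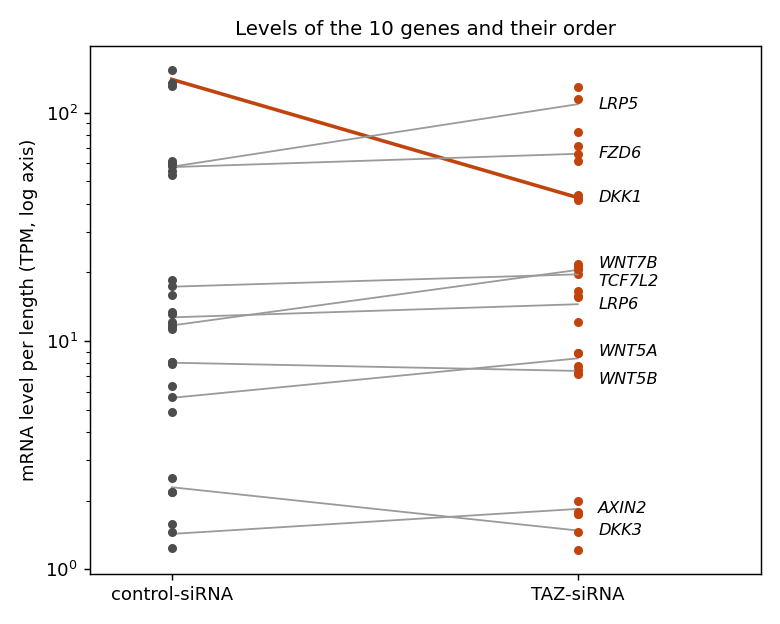
Level per transcript length (TPM, log axis) of the 10 genes in each library, with lines joining the group means. DKK1 (orange line) went from first, at 140 TPM, to the third, at 42.5 TPM, while LRP5 went from 58.0 to 109 TPM and WNT7B from 11.7 to 20.5 TPM.

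Ratios of these TPM within a library, chosen after the values were seen and partly made of DKK1, are a description. DKK1 divided by the sum of LRP5 and LRP6 was 2.07, 1.86 and 2.02 with control-siRNA and 0.324, 0.286 and 0.46 with TAZ-siRNA. LRP5 divided by LRP6 was 4.56, 4.52 and 4.64 with control-siRNA and 7.35, 8.24 and 6.86 with TAZ-siRNA. This ratio was higher in every TAZ-siRNA library than in every control library, replicate 3 included, and the difference was not tested. FZD6 held 52.1 to 53.3% of the summed Frizzled TPM in the control libraries and 47.1 to 50.2% in the TAZ-siRNA libraries. WNT5A, WNT5B and WNT7B together held 69.0 to 71.9% of the TPM of all Wnt ligands in the control libraries and 72.8 to 75.1% in the TAZ-siRNA libraries.

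The transcripts of the 10 genes were examined by their share of the gene's TPM, without a test. The share of the leading transcript did not overlap between the groups in 1 of the 9 genes with more than 1 transcript, beside 11.6% of all such genes tested. That gene was FZD6, whose transcript NM_003506 held 87.9 to 90.6% in the controls and 82.5 to 82.8% after TAZ-siRNA. NM_003392 held 71.1 to 84.8% of WNT5A in the control libraries and 73.4 to 91.8% in the TAZ-siRNA libraries, and NM_002335 held 77.1 to 98.0% and 81.2 to 94.1% of LRP5. For WNT5B the leading transcript took anything from 0 to 100% of the gene within 1 group, so its transcripts cannot be compared. The leading transcript of AXIN2 held 89.4 to 96.9% in 5 libraries and 20.2% in TAZ-siRNA replicate 3.

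The neighbourhood of DKK1 was measured on 500 kb to either side. The nearest gene was PRKG1-AS1, a long noncoding RNA on the opposite strand. In the deposited coordinates it lay 153 bases before the start of DKK1. As it is read in the opposite direction, the end facing DKK1 is its own start. In the GENCODE annotation it overlaps the first bases of DKK1. Its counts were 54, 33 and 24 with control-siRNA and 13, 6 and 17 with TAZ-siRNA. The libraries did not overlap, and the level fell from 0.611 ± 0.173 to 0.201 ± 0.0935 CPM (log2 fold change -1.6, SE 0.378, adjusted p = 0.013). This call was lost on omitting control-siRNA replicate 1 (-1.33, adjusted p = 0.074) or TAZ-siRNA replicate 1 (-1.5, adjusted p = 0.067). Reads of this RNA and of DKK1 cannot be told apart where they overlap if strand was not used.

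PRKG1, a cGMP-dependent kinase gene that ends 15.9 kb before DKK1, was not lower, with 3.8 ± 0.153 CPM and 5.06 ± 0.993 CPM (0.42, SE 0.146, adjusted p = 0.066). It passed as higher with DESeq2 (adjusted p = 0.047), with the replicate block (0.044) and without TAZ-siRNA replicate 3 (0.57, adjusted p = 0.0017). Under the other alternatives it did not pass. LNCAROD, 133 kb beyond DKK1, had 0 to 7 counts and was not tested. The 6 other genes of this stretch, MBL2 among them, had no count in any library.

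Genes whose profile over the 6 libraries was most like that of DKK1 were found by the root mean square difference of log2 CPM after centring each gene on its own mean, among the 9938 genes that reached 10 CPM on average. The closest was LPAR1, a receptor for lysophosphatidic acid, at a difference of 0.0637, where the median gene was at 0.889. It went from 15.8 ± 1.66 to 4.45 ± 0.302 CPM. CLDN1, a tight junction gene (0.203), TGFB2, a transforming growth factor (0.244), CCN1, a matricellular gene (0.259), and CAVIN2, a caveola coat gene (0.298), followed, with log2 fold changes of -2.0, -1.35, -1.42 and -1.33. None of the 5 is a gene of the Wnt lists. Since DKK1 was chosen for its fall, genes with a like fall had to come closest, so this ranking is a description. The study too selected all 5 as lower from these libraries.

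The rest of the pathway was followed through lists of 99 further genes, of which 67 passed the filter. Of these, 22 rose and 2 fell with TAZ-siRNA, or 32.8% and 2.99%, beside 11.9% and 10.2% of all genes tested. Their median log2 fold change was 0.16. The lists too were chosen with earlier results of these data known, so these shares are a description. After a correction for GC content and transcript length, however, the count was 19 higher and 5 lower (28.4% and 7.46%) and the median 0.042. In that fit 13.8% of all genes tested were higher and 16.1% lower, with a median of -0.013. With 5 of the 6 libraries, 15 to 28 rose and 1 to 4 fell. The lower limit of 15 was reached on omitting control-siRNA replicate 2 or TAZ-siRNA replicate 1, and the upper limit on omitting TAZ-siRNA replicate 3. The background moved with it, as 1102 to 3102 of all genes were higher and 835 to 2826 lower in these fits. With limma on log2 FPKM, 15 rose and 1 fell, and PTK7, KREMEN1, DVL3, CTBP1, FZD3, CELSR1, CELSR3 and PRICKLE2 were no longer past the threshold.

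**Figure D4:**
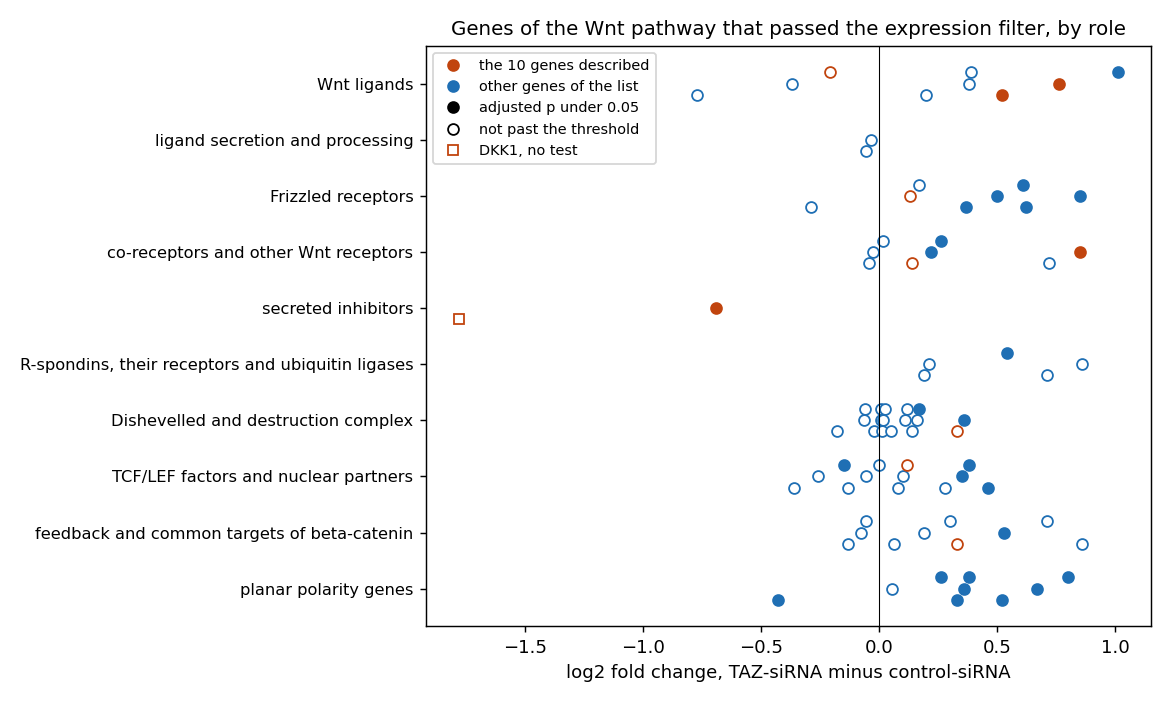
log2 fold change, TAZ-siRNA minus control-siRNA (x axis), of each gene of the Wnt lists that passed the filter, by role, with the 10 genes described in orange and filled points for an adjusted p under 0.05 in edgeR. The planar polarity genes (7 higher, 1 lower) and Frizzled receptors (5 higher) hold more filled points than any other list, and the secreted inhibitors hold only DKK1 (hollow square) and DKK3. A gene of more than 1 list is drawn in each. Of all genes tested, 11.9% were higher and 10.2% lower.

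Besides WNT5A and WNT7B, 1 of 6 further ligands that passed the filter rose (16.7%, beside 11.9% of all genes tested). This was WNT2B, from 3.26 ± 0.286 to 6.52 ± 1.19 CPM (log2 fold change 1.01, SE 0.144, adjusted p = 0.0011), a gene that the study too selected from these libraries, so its direction is no independent evidence. The other 10 of the 19 ligand genes were too low to be tested, 5 of them without any count. The summed TPM of the ligands was 33.7 to 37.8 in the controls and 45.8 to 51.3 after TAZ-siRNA.

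Among the Frizzled receptors other than FZD6, 7 passed the filter, of which 5 rose (71.4%, beside 11.9% of all genes tested). FZD4 rose from 15.6 ± 0.951 to 28.1 ± 4.46 CPM (0.85, SE 0.109, adjusted p = 6.6e-04), and FZD7, the most abundant of the 5, from 34.3 ± 0.818 to 48.3 ± 2.86 CPM (0.50, SE 0.0595, adjusted p = 4.3e-04). FZD1 (0.62, adjusted p = 0.0033), FZD8 (0.61, adjusted p = 0.004) and FZD3 (0.37, adjusted p = 0.0055) completed the group, and all 5 calls held in 6 of 6 fits with a library left out, although that of FZD3 was lost with limma (adjusted p 0.074 and 0.081). FZD2 (-0.29, adjusted p = 0.12) and FZD5 (0.17, adjusted p = 0.3), named after their values were seen, did not pass. FZD2 was past the threshold as lower once GC content and length were corrected for (-0.36, adjusted p = 0.039) and on omitting TAZ-siRNA replicate 2 (-0.43, adjusted p = 0.024). The summed Frizzled TPM were 105 to 113 in the controls and 122 to 145 after TAZ-siRNA, without overlap.

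Among the other receptors and co-receptors, KREMEN1, which can take up LRP5 and LRP6 together with DKK1, rose from 27.5 ± 1.12 to 33.0 ± 2.01 CPM (0.26, adjusted p = 0.015). It did not pass without control-siRNA replicate 2 (adjusted p = 0.087) or without TAZ-siRNA replicate 1 (adjusted p = 0.056), nor once GC content and length were corrected for (0.15, adjusted p = 0.054). PTK7 passed by little (0.22, adjusted p = 0.043) and, with a library left out, in 1 of 6 fits, the one without TAZ-siRNA replicate 3. LGR4, a receptor for R-spondins, was the gene of its list of 5 tested that rose (20.0%, beside 11.9% of all genes tested). It went from 73.9 ± 3.47 to 107 ± 14.7 CPM (0.54, SE 0.0897, adjusted p = 0.0029).

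The secreted inhibitors were nearly silent apart from DKK1. Of the 12 listed, DKK1 and DKK3 passed the filter, and 6 of the other 10 had no count in any library. The genes for ligand secretion and processing that passed the filter, named after their values were seen, were WLS (-0.056, adjusted p = 0.43) and PORCN (-0.035, adjusted p = 0.86), and neither was past the threshold. The sign of PORCN changed with the library left out (-0.14 to 0.041).

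Of the 17 Dishevelled and destruction complex genes, AXIN2 included, 2 rose (11.8%, beside 11.9% of all genes tested). GSK3B, a kinase that marks β-catenin for breakdown, rose from 57.7 ± 2.78 to 74.1 ± 8.0 CPM (0.36, SE 0.0762, adjusted p = 0.0078). DVL3 rose less (0.17, adjusted p = 0.03), passed in 1 of 6 fits with a library left out, the one without TAZ-siRNA replicate 3, and did not pass once GC content and length were corrected for (0.079, adjusted p = 0.12). The gene of β-catenin itself, CTNNB1, named after its values were seen, was at 474 ± 13.0 and 522 ± 8.09 CPM, without overlap of the groups. This change did not pass in edgeR with all libraries (0.14, adjusted p = 0.091). At the same size it passed with DESeq2 (adjusted p = 0.029), with the replicate block (0.032) and without TAZ-siRNA replicate 3 (0.044). Under the other alternatives it did not pass.

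Of the 13 TCF/LEF factors and nuclear partners tested, TCF7L2 included, 3 rose and 1 fell. These were 23.1% and 7.69%, beside 11.9% and 10.2% of all genes tested. The rises were those of BCL9 (0.46, adjusted p = 0.0012) and PYGO2 (0.38, adjusted p = 0.0011), partners through which β-catenin activates transcription, and of TLE3 (0.35, adjusted p = 0.0052), a co-repressor of TCF factors. The co-repressor CTBP1 fell by 0.15 on the log2 scale (adjusted p = 0.038), a call lost in 4 of 6 fits with a library left out (each control library, or TAZ-siRNA replicate 1, adjusted p 0.093 to 0.15).

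Among 10 feedback genes and common targets of β-catenin, AXIN2 included, 1 passed. TNFRSF19 rose from 2.22 ± 0.0935 to 3.2 ± 0.195 CPM (0.53, adjusted p = 0.015) and did not pass without control-siRNA replicate 1 (0.061) or 2 (0.053) or without TAZ-siRNA replicate 1 (0.069). The share of 10.0% was close to the 11.9% of all genes that rose. The median of this list was 0.24, beside -0.0054 for all genes tested, and 7 of its 10 log2 fold changes were above 0. The largest, of LGR5 (0.86, adjusted p = 0.068) and RNF43 (0.71, adjusted p = 0.25), came from 0.296 and 0.317 CPM with control-siRNA. The 3 below 0 were TCF7 (-0.13), CCND1 (-0.075) and LEF1 (-0.056), at 5.09, 196 and 11.5 CPM with control-siRNA. These uncalled genes were named after their values were seen.

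Planar polarity genes, which serve the branch of WNT5A and FZD6, held the largest share of calls among the lists with more than 2 genes tested. Of 9 tested, 7 were higher and 1 lower (77.8% and 11.1%, beside 11.9% and 10.2% of all genes tested). The formin genes DAAM2 (0.67, adjusted p = 0.0026) and DAAM1 (0.38, adjusted p = 0.0044), the membrane protein gene VANGL1 (0.36, adjusted p = 0.0061) and the cadherin gene CELSR1 (0.33, adjusted p = 0.0047) rose in 6 of 6 fits with a library left out. CELSR2 (0.80, adjusted p = 0.023), PRICKLE2 (0.52, adjusted p = 0.017) and CELSR3 (0.26, adjusted p = 0.039) rose with all libraries and in 3, 2 and 1 of these fits. CELSR2 was lost without control-siRNA replicate 2 or 3 or TAZ-siRNA replicate 1 (adjusted p 0.067 to 0.072), PRICKLE2 without any 1 control or TAZ-siRNA replicate 1 (0.051 to 0.068), and CELSR3 in all fits but that without TAZ-siRNA replicate 3 (0.075 to 0.16). Corrected for GC content and length, CELSR3 did not pass (0.14, adjusted p = 0.16), and VANGL1 (0.23, adjusted p = 0.0052) and CELSR1 (0.21, adjusted p = 0.0017) were smaller but passed. CELSR1 did not pass with limma (adjusted p 0.058 and 0.054). PRICKLE1 fell from 26.1 ± 3.13 to 19.3 ± 0.617 CPM (-0.43, SE 0.0856, adjusted p = 0.0058), opposite in direction to its relative PRICKLE2.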

How the data were processed

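RNA from 3 control-siRNA and 3 TAZ-siRNA preparations of MDA-MB-231 cells was sequenced. Trimmed reads were aligned by the authors with HISAT2 to GRCh38, and StringTie gave the abundance of RefSeq transcripts, whereas the submitters' processing notes name Bowtie 0.12.2 and also the mouse build mm8. The use of strand in counting is not given in the sources used here. The authors deposited an estimated count (whole numbers), an FPKM value (per length and library size) and a TPM value (per length, to a common total) for each gene and transcript. Titles number the replicates otherwise than the value columns, whose numbers 1 to 3 were used. Counts of replicates differed by more than sampling noise (chi-square 6.77 to 41.8 per degree of freedom).

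TAZ-siRNA was compared with control-siRNA in edgeR 4.0.16 (R 4.3.3; TMM, filterByExpr with a minimum count of 10, robust quasi-likelihood test, Benjamini-Hochberg adjustment over all genes tested, threshold 0.05), which was tested on simulated data. Alternatives were DESeq2 1.42.0, limma 3.58.1 with a pseudocount of 1 or 0.1 on log2 FPKM, upper-quartile scaling, other filters, a replicate block, a GC and length correction (values for 89.7% of genes tested) and leaving out each library. CPM are TMM-scaled. The floor of 3 counts covers counting error only. Members and lists were chosen with earlier results of these data known. Named genes were the 10 genes, WWTR1, list genes past the threshold (at most 5 with values per list and direction), the 5 profiles closest to DKK1, and its neighbours and overlapping genes. Motifs were searched in RefSeq windows.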

Additional observations from a re-analysis of the deposited data

How the results depend on the processing

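WWTR1 kept its direction under all 14 alternatives, and WNT5A, WNT7B and LRP5 also kept their calls. DKK1 stayed lower in each, which is a description, since the gene was chosen for its fall in these libraries. The 24 further list genes that passed kept their direction too, whereas 17 of the 67 tested, none of them called, changed sign under at least 1 alternative. Of the 9 tested genes, 3 to 7 passed with each library left out (4 with all 6), and of all genes 1937 to 5928 (3749), the lowest without control-siRNA replicate 2 and the highest without TAZ-siRNA replicate 3. Of the further list genes 16 to 31 passed (24), and 16 with limma. The 24 list genes lost their call in 53 of 336 values under the alternatives. Whether replicate numbers pair the samples is not given in the sources used here. Same-numbered libraries, centred on their group, had correlations of -0.0173 to 0.0698, which with 3 libraries per group cannot settle it. On the second principal component, replicate 2 was highest and replicate 3 lowest in each group. The GC and length correction turned the balance over all genes from 2012 higher and 1737 lower to 2095 and 2457. With the replicate block, 5122 genes, 5 of the 9 (FZD6 added, adjusted p = 0.032) and 30 list genes passed, with FZD2 lower (-0.3, adjusted p = 0.032). The causes were not tested. Low counts limit DKK3, AXIN2 and PRKG1-AS1.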
